A study of Mus musculus with 16 samples.

Results

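The nephron, the filtering and resorbing unit of the kidney, was followed through 9 genes that mark its successive segments: Nphs1 of the podocyte, Lrp2, Slc34a1 and Kap of the proximal tubule, Umod and Slc12a1 of the thick ascending limb, Slc12a3 of the distal convoluted tubule, Aqp2 of the collecting duct, and Cdh16 of the tubule epithelium as a whole. The genes were chosen by name, and each assembled transcript was assigned to the GENCODE M21 gene with which it shared the largest exonic overlap on the same strand. The 9 genes, out of 40378 GENCODE symbols with a transcript in the assembly, took 39 of its 137561 transcripts. RNA came from adult C57BL/6J mice without a further allele or treatment, and 8 tissues were each captured with 2 probe designs, which gave 16 libraries with 1 library for each tissue and design. Whole brain, cerebellum, cortex and olfactory bulb were the brain tissues, and heart, kidney, liver and a tissue labelled testes were the nonbrain tissues. The lncRNA design carries probes to long noncoding RNA loci, and the splice junction design carries probes on both sides of annotated splice sites, from which the regions most abundant in brain had been removed. Of the ERCC spike-ins, mix 1 went into heart, liver, whole brain and cerebellum, and the remaining tissues received mix 2. Nonbrain RNA was pooled from 2 pieces of an organ of the same mouse, and brain and nonbrain libraries were extracted with different kits and hybridized in separate pools of 4 libraries, so tissue class, kit and pool cannot be told apart.

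As background, blood is filtered at the glomerulus, where podocytes form the slit diaphragm, and the filtrate then runs through the proximal tubule, which takes back most of the solutes, the loop of Henle, whose thick ascending limb takes up salt without water, the distal convoluted tubule, where salt uptake is fine-tuned, and the collecting duct, where water uptake is set by vasopressin. Each segment carries its own transporters and channels, and the genes that encode them are used as markers of the segment. In a whole kidney the proximal tubule makes up most of the mass and podocytes very little, and in bulk RNA fewer cells of a type and less RNA per cell cannot be told apart.

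Levels are given as fragments, the read pairs recovered from the deposited values, as FPM, fragments per 1000000 fragments other than spike-ins, or as FPKM, FPM per kilobase of transcript. Libraries held 6463678 to 17692704 fragments without spike-ins in the lncRNA design and 12836676 to 37313718 in the splice junction design. Spike-ins took 9.02% to 45.6% and 7.81% to 18.6% of the fragments in these designs. The libraries labelled testes went against their label. In the splice junction design the 6 germ cell markers summed to 1.25 FPM in them, under the 15.4 to 38.8 of the brain tissues, whereas 5 keratinocyte markers summed to 4804 against at most 86.5 in any other library. Of 5 reproductive duct markers, 1 was highest in the testes-labelled library, where the list summed to 6.71. These libraries are named by their label throughout. The kidney label was met by tubule markers, since all 18 proximal tubule and all 10 thick ascending limb markers were highest in the kidney library of the splice junction design. Kidney was also highest for 11 of 14 collecting duct and 5 of 9 distal convoluted and connecting tubule genes. It was highest for 5 of 9 regulators of the nephron and for only 2 of 9 podocyte genes.

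Nphs1 (chr7:30458315-30487223, plus strand, in GRCm38) encodes nephrin, the adhesion protein of the podocyte slit diaphragm. Its fragments in the splice junction libraries were 1680 in kidney, 166 in whole brain, 44 in cerebellum, 210 in cortex, 57 in olfactory bulb, 16 in heart, 34 in liver and 18 in the testes-labelled tissue. Kidney was the highest library, at 59.0 FPM, and cortex was second, at 7.52, so kidney exceeded it 7.85-fold (95% interval 6.80 to 9.11, counting error only). Nphs1 was the one member measured in kidney below a 10-fold excess in this design, which rested on the cortex library, since kidney was 11.8-fold over the second highest library. In the lncRNA design kidney held 608 fragments and cortex 28, a 29.9-fold excess, and no fragment was found in cerebellum or heart. The order of the brain tissues was cortex, whole brain, olfactory bulb and cerebellum in the splice junction design, and it was the same in the lncRNA design, where they held 1.64, 1.52, 0.339 and 0 FPM. Cortex and whole brain did not differ there beyond counting error, on 28 and 19 fragments (95% intervals 18.6 to 40.5 and 11.4 to 29.7).

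Nphs1 showed 2 main transcript starts, and a short annotated transcript with another start, at chr7:30486255, took 0.804% in the cortex splice junction library. The leading transcript in the kidney splice junction library, with 83.5% of the fragments of the gene, began at chr7:30458315 with an exon upstream of the start of the main annotated transcript, ENSMUST00000006825.8 at 30459725, and its chain of introns is in no M21 transcript. The extent of the gene in M21 also begins at chr7:30458315, so the start itself is annotated. ENSMUST00000006825.8 held 16.5%. The upstream start also led in cortex, with 88.7%, and in whole brain, with 100%. Among lncRNA libraries 99.95% of the kidney fragments were given to another transcript from the upstream start, with 31 exons in place of 30, which was listed near 0 in the splice junction library. The share of the upstream start was thus high in both designs, and the chain of exons behind it was not the same.

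Lrp2 (chr2:69424340-69586065, minus strand) encodes megalin, the large endocytic receptor with which the proximal tubule recovers filtered proteins, and which is also known from ependyma and other absorptive epithelia. Its gene model, of up to 79 exons, was listed at 0 in the kidney library of the splice junction design. The other splice junction libraries held 1113 fragments in whole brain, 416 in cerebellum, 150 in cortex, 441 in olfactory bulb, 7988 in heart, 18015 in liver and 87382 in the testes-labelled tissue. The lncRNA libraries held 2905 fragments in kidney, 317 in the testes-labelled tissue, 15 in liver, 4 in heart, and 0 or 1 in each brain tissue. Kidney was therefore the highest of 8 tissues for Lrp2 in one design and the lowest in the other. Of 2538 gene models with at least 3000 fragments in a heart, liver or testes-labelled splice junction library, that of Lrp2 was the only one listed at 0 in kidney. A 0 in these files can stand for an estimate that failed, so no fold is given for Lrp2 in that design, and what gave the 0 was not tested.

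The testes-labelled library stood apart for Lrp2. In the splice junction design it held 3314 FPM, 5.33 times the heart level of 622, whereas the other 8 members were at 0.401 to 0.746 times their heart level there. The ratio of liver to heart was 0.776 for Lrp2, within the 0.567 to 0.803 of the other 8. With lncRNA probes the testes-labelled tissue reached 8.65% of the kidney level of Lrp2, against 0.263% in heart and 0.582% in liver, and the kidney excess over it was 11.6-fold (95% interval 10.3 to 13.02), and 172-fold over the second highest library. Beside this, the keratinocyte list was highest in the testes-labelled library for 4 of its 5 genes, with a sum of 4804 FPM against 10.3 to 86.5 elsewhere. Krt14 (3665 FPM) and Krt5 (1087) led it. The reproductive duct list reached 6.71, with Crisp1 at 6.52. The part of these cells in the Lrp2 level was not tested.

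Across the brain tissues Lrp2 was 33.6 FPM in whole brain, 18.6 in olfactory bulb, 15.2 in cerebellum and 5.37 in cortex in the splice junction design. Markers of choroid plexus and ependyma, 7 of 8 found in the assembly, summed to 322, 40.9, 346 and 31.5 in the same libraries. Whole brain was thus the highest and cortex the lowest for Lrp2, while cerebellum was the highest and cortex the lowest for the marker list. The part of the marker cells was not tested. The annotated full-length transcript, ENSMUST00000080953.11, held 93.4%, 91.7% and 93.2% of the Lrp2 fragments in heart, liver and the testes-labelled tissue of the splice junction design and 85.2% in the kidney lncRNA library, where a transcript of 50 exons that is not in M21 took 14.7%. In the brain tissues the annotated transcript held 91.4% in olfactory bulb, 74.2% in whole brain, 28.5% in cerebellum and 0.053% in cortex, on 441, 1113, 416 and 150 fragments. Other transcripts of 78 or 79 exons took 32.5%, 21.3% and 11.7% in cerebellum, and 44.5% and 21.8% in cortex. The transcript of 50 exons took 5.95% and 28.2% there. These estimates carry no error, so the split among the long transcripts is not resolved.

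Slc34a1 (chr13:55398187-55415592, plus strand) encodes the sodium phosphate cotransporter NaPi-IIa of the proximal tubule brush border. The splice junction libraries held 205143 fragments in kidney, 1812 in heart, 3832 in liver, 2532 in the testes-labelled tissue, and 2, 0, 3 and 3 in whole brain, cerebellum, cortex and olfactory bulb. Kidney, at 7210 FPM, exceeded heart, the next library, 51.1-fold (95% interval 48.8 to 53.5). In the lncRNA design kidney held 7056 fragments, 169-fold over liver, and the brain tissues held 0. Per length it was the highest of the members in the kidney splice junction library, at 2343 FPKM. A single transcript, with the intron chain of ENSMUST00000057167.8, took 99.0% of the fragments in the kidney splice junction library and 96.5% to 99.3% in heart, liver and the testes-labelled tissue.

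Kap (chr6:133849851-133853762, minus strand) encodes the kidney androgen-regulated protein, a small secreted protein made by mouse proximal tubule cells. Splice junction capture gave 2502 fragments in kidney, 17 in heart, 28 in liver and 14 in the testes-labelled tissue, and the lncRNA libraries held 2608, 3, 12 and 7. No brain library held a fragment in either design. Kap was the one member measured in both kidney libraries that was higher, in FPM, in the lncRNA design, at 211 against 87.9. Its excess over the next library was 66.4-fold in the splice junction design (95% interval 41.4 to 114) and 193-fold in the lncRNA design (110 to 374). Against the second highest library the folds were 117 and 455, outside these intervals. The gene has 1 assembled transcript, of 4 exons, with an annotated intron chain.

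The start regions of the members were compared in RefSeq windows of GRCm38.p6 that run from 250 bases before to 50 bases after each start, which were found for 8 of the 9 genes, all but Cdh16. Of 2 motifs searched on both strands, 1 is reported, the TATA box, TATAAA. It was found in 3 of the 8 members, Slc34a1, Kap and Slc12a3, and in 13.6% of 32851 windows of all genes. In Kap and Slc12a3 it lay 31 and 32 bases before the start, and in Slc34a1 it lay after the start. A match describes the letters of the window and no more.

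Umod (chr7:119462711-119479282, minus strand) encodes uromodulin, the most abundant protein of normal urine, which cells of the thick ascending limb secrete. The splice junction libraries held 113965 fragments in kidney, 919 in heart, 1881 in liver and 1288 in the testes-labelled tissue, and all 4 brain libraries held 0. Kidney exceeded heart 55.9-fold (95% interval 52.4 to 59.8). With lncRNA probes kidney held 1357 fragments, heart 3, liver 8 and the testes-labelled tissue 4, with 0 in the brain tissues. In the lncRNA design the 95% counting intervals of heart, liver and the testes-labelled tissue began at 0.619, 3.45 and 1.09 fragments. All are under 3.69, the upper limit for 0 fragments, so each interval overlaps that of a brain library. Overlap of intervals on raw fragments does not decide a difference, since the libraries differ in depth, and the difference was not tested.

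The 2 kidney libraries divided Umod between different transcripts. In the splice junction library 68.6% of the fragments went to a transcript that is not in M21 and 29.9% to the annotated ENSMUST00000033263.5, whereas in the lncRNA library they took 1.23% and 97.6%. The unannotated transcript uses a coding exon of 123 bases (chr7:119469365-119469487, minus strand) where the annotated one has 246 (chr7:119469242-119469487). The exon is printed in full because the isoforms differ in it, in the direction of transcription, with the 123 bases that the unannotated transcript lacks in capitals.
Umod exon: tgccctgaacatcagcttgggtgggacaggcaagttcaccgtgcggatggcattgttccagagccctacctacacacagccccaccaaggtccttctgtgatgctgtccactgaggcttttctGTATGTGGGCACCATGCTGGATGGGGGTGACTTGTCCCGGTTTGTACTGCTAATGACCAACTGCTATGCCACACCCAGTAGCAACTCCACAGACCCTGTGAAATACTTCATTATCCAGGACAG

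The missing segment begins with GTATGT, so that the shorter exon ends just before a GT, and its length is a whole number of triplets, 41. In heart, liver and the testes-labelled tissue the shorter exon took 34.0%, 58.3% and 67.4% of the Umod fragments of the splice junction libraries, on 919, 1881 and 1288 fragments. The estimate of one transcript carries no error in the files, and the share of the shorter exon ranged from 1.23% to 68.6% over these 5 libraries.

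Slc12a1 (chr2:125152505-125230002, plus strand) encodes NKCC2, the sodium potassium chloride cotransporter of the thick ascending limb that loop diuretics block. Splice junction capture gave 228482 fragments in kidney, 1530 in heart, 3413 in liver, 2283 in the testes-labelled tissue, 51 in whole brain, 26 in cerebellum, 10 in cortex and 97 in olfactory bulb. Kidney held 8030 FPM and exceeded heart 67.4-fold (95% interval 64.1 to 70.9). Olfactory bulb was the highest brain tissue, at 4.10 FPM, and cortex the lowest, at 0.358. Among lncRNA libraries kidney held 666 fragments, heart 2, and liver and the testes-labelled tissue 1 each. Kidney was 174-fold over heart there, with a counting interval of 48.0 to 1441.

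NKCC2 is known to be made with 1 of 3 mutually exclusive cassette exons, called B, A and F in their genomic order, which encode part of the transport path and differ in where along the limb they are used, F toward the medulla and B at the macula densa. The assembly held all 3 as coding exons of 96 bases, at chr2:125165495-125165590, chr2:125166123-125166218 and chr2:125166673-125166768, plus strand. They are printed because the isoforms of Slc12a1 are told apart by them here, with the 45 positions at which the 3 are not all identical in capitals.
The first cassette: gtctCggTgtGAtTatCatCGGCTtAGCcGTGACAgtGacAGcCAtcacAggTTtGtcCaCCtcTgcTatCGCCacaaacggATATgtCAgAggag
The second cassette: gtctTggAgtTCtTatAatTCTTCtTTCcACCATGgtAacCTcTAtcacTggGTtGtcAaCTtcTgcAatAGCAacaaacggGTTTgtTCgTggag
The third cassette: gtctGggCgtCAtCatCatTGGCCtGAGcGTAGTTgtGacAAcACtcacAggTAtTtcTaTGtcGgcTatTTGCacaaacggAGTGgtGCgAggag

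The first cassette and the third shared 66 of 96 bases, the first and second 63, and the second and the third 56. In the kidney splice junction library transcripts with the third cassette alone held 57.0% of the Slc12a1 fragments, those with the second alone 26.8% and those with the first alone 10.6%. A transcript with both the second and the third cassette, which is not in M21, held 5.15%. The kidney lncRNA library gave 54.4%, 32.3% and 13.002% on 666 fragments, and 0.000183% for the transcript with both. In heart, liver and the testes-labelled tissue of the splice junction design the third cassette alone took 58.8%, 63.4% and 57.6%, the second alone 22.3%, 17.9% and 23.1%, and the first alone between 11.8% and 13.6%. The same order of the 3 cassettes held in all 5 libraries with at least 100 fragments of the gene. The plot of isoform shares sets these libraries beside those of Umod.

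**Figure D1:**
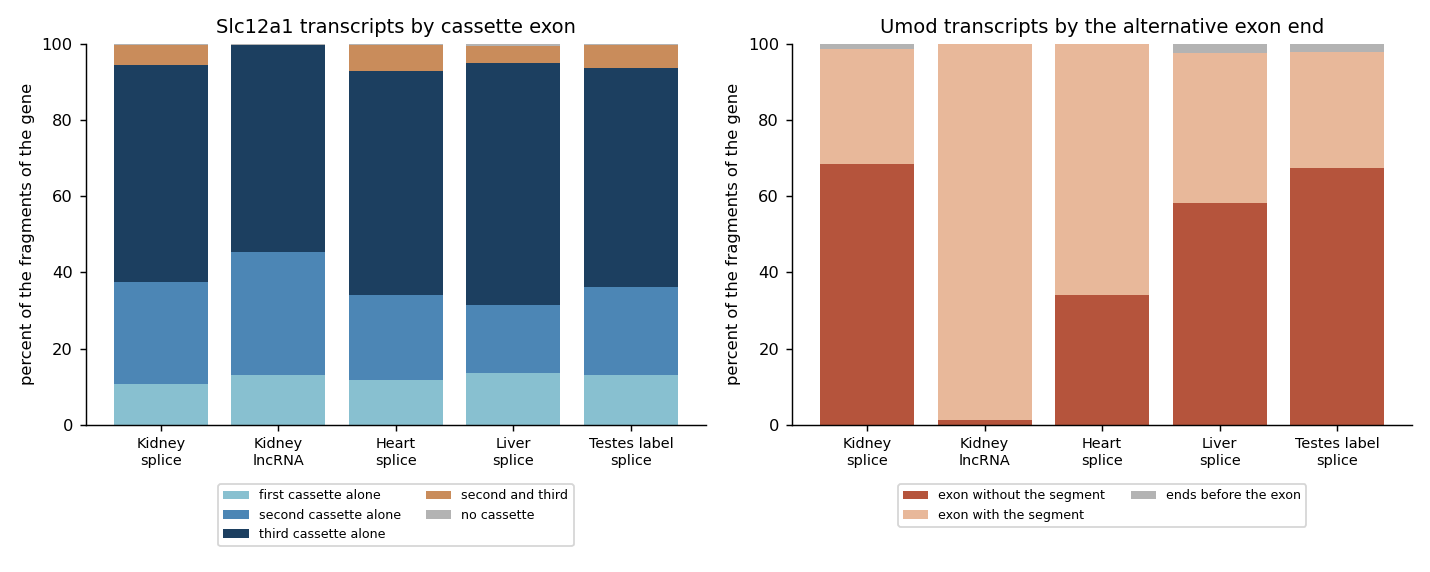
Share of the fragments of a gene (y axis, percent) by the cassette exon of Slc12a1 transcripts (left) and by the end of the alternative exon of Umod (right), in the 5 libraries named on the x axis, 1 library each and no error bars. The third cassette alone held 54.4% to 63.4% in every library, whereas the Umod exon without the 123-base segment ranged from 1.23% to 68.6%.

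Slc12a3 (chr8:94329201-94366214, plus strand) encodes NCC, the thiazide-sensitive sodium chloride cotransporter of the distal convoluted tubule. The splice junction libraries held 62056 fragments in kidney, 511 in heart, 1031 in liver, 724 in the testes-labelled tissue, and 9, 5, 10 and 17 in whole brain, cerebellum, cortex and olfactory bulb. Kidney exceeded heart 54.8-fold (95% interval 50.2 to 59.9). In the lncRNA design kidney held 13137 fragments and exceeded heart 109-fold (85.2 to 142). Only 3.52% of these belonged to the spliced gene model of 25 exons (462 fragments), while 3 single-exon gene models inside the gene, at chr8:94352430-94352987, chr8:94353145-94353606 and chr8:94354013-94355155, took 4086, 1494 and 7095. In the kidney splice junction library the same 3 models held 24, 10 and 17 fragments, and the spliced model held 99.9%.

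Slc34a1 also had a single-exon model, at chr13:55415068-55415545. It lay inside the annotated extent of the gene but past the end of the spliced gene model, at 55414695. Those of Slc12a3 lay within the spliced model. The Slc34a1 single-exon model held 5011 of 7056 kidney fragments (71.0%) in the lncRNA design and 11 of 205143 in the splice junction design. The other members had no single-exon gene model.

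Aqp2 (chr15:99579055-99584547, plus strand) encodes the vasopressin-regulated water channel of collecting duct principal cells. Splice junction capture gave 7813 fragments in kidney, 80 in heart, 178 in liver, 117 in the testes-labelled tissue, 17 in cerebellum and 3 in each of whole brain, cortex and olfactory bulb. Kidney exceeded heart 44.1-fold (95% interval 35.4 to 55.6), and cerebellum stood above the other brain tissues. Among lncRNA libraries kidney held 58 fragments, liver and the testes-labelled tissue 1 each, and the others 0. With 1 fragment in the next library the kidney ratio there was 51.5, with a counting interval of 8.88 to 2069. In kidney 53.0% of the Aqp2 fragments of the splice junction design went to a transcript that is not in M21 and starts at chr15:99578631 with an added upstream exon, and 41.9% to the annotated ENSMUST00000023752.5, which starts at 99579056. In liver the shares were 55.3% and 44.7% on 178 fragments, and in the testes-labelled tissue they stood the other way round, 41.0% and 59.0% on 117.

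Cdh16 (chr8:104601911-104624396, minus strand) encodes kidney-specific cadherin, an adhesion protein of the basolateral side of tubule cells in all segments. The splice junction libraries held 112245 fragments in kidney, 854 in heart, 1994 in liver, 1308 in the testes-labelled tissue, and 0, 2, 2 and 0 in whole brain, cerebellum, cortex and olfactory bulb. Kidney exceeded heart 59.3-fold (95% interval 55.4 to 63.5). With lncRNA probes kidney held 624 fragments, liver and the testes-labelled tissue 2 each, and the other libraries 0. Kidney stood above liver 277-fold, with a counting interval of 76.4 to 2293. The annotated transcript with 18 exons, ENSMUST00000211903.1, took 89.2% of the kidney fragments of the splice junction design and 81.0% of those of the lncRNA design. A transcript that is not in M21 and starts at an alternative first exon, at chr8:104623886 in place of 104624396, took 10.6% and 18.96% there, and 23.6%, 20.6% and 33.8% in heart, liver and the testes-labelled tissue.

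**Figure D2:**
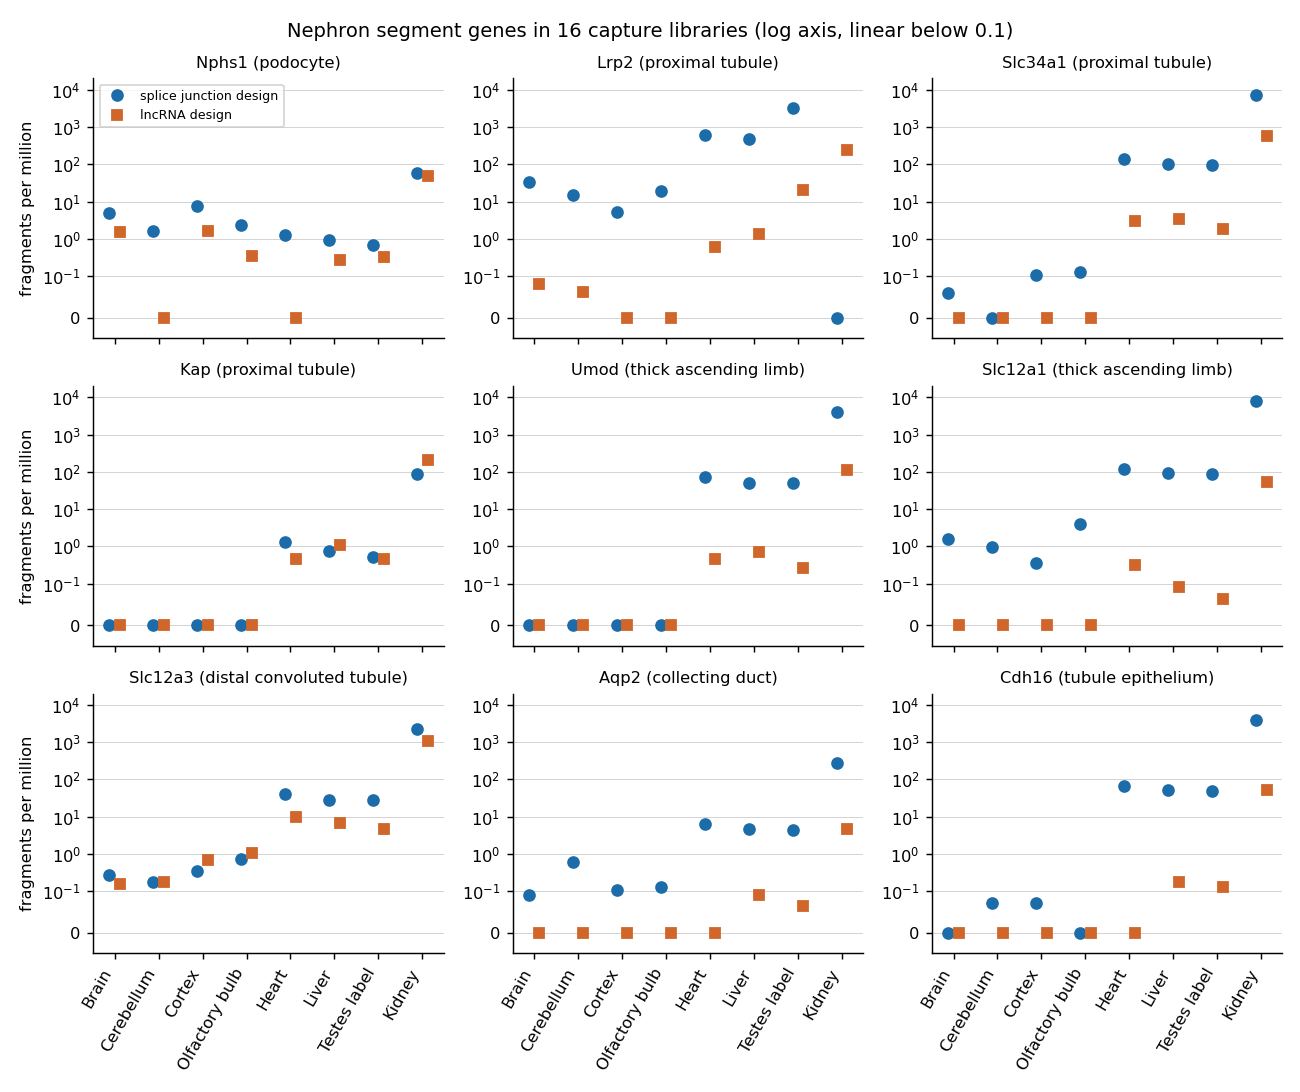
FPM (y axis, log scale, linear below 0.1) of each member in the 8 tissues (x axis), with a circle for the splice junction library and a square for the lncRNA library, 1 library each. Kidney was the highest tissue in both designs for every member but Lrp2, whose kidney splice junction library is listed at 0.

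Kidney was set against the other tissues with a call of at least 10-fold over the highest other library of the same design, at least 10 kidney fragments, and any library under 3 fragments set to 3. With 1 kidney library in each design this carries no p-value. In the splice junction design 7 of the 9 members were called, all but Nphs1 and Lrp2, against 1.82% of 15934 features. In the lncRNA design all 9 were called, against 1.18% of 20171 features, with Aqp2 nearest to the limit at 10.1-fold on its 58 fragments under that rule. Per length the kidney splice junction library ran Slc34a1 (2343 FPKM), Slc12a1 (1732), Umod (1568), Cdh16 (1329), Slc12a3 (662), Aqp2 (208), Kap (145) and Nphs1 (13.6). Neighbours in this order did not overlap in their counting error. The order of the lncRNA library, summed over all gene models, was another, led by Slc12a3 (1368), then Slc34a1 (902), then Kap (347). Single-exon models weigh on that order. The spliced gene models held only 3.52% of the Slc12a3 and 29.0% of the Slc34a1 fragments there. In FPM these spliced models alone were at 37.4 and 165, below Kap at 211. The probes a gene received differ, so levels of different genes do not compare RNA amounts.

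Other genes of the same segments were taken from marker lists. In the splice junction design 12 of 18 proximal tubule genes were called in kidney, 6 of 10 thick ascending limb genes, 2 of 9 distal convoluted and connecting tubule genes, 6 of 14 collecting duct genes and 1 of 9 podocyte genes. The 2 highest per length were Slc27a2 (5149 FPKM), a fatty acid transport protein that liver also held (kidney 3.34-fold over it), and Ggt1 (2294), the gamma-glutamyl transferase of the brush border (50.6-fold), for the proximal tubule. For the thick ascending limb the highest was Egf (2587 FPKM, 33.2-fold), the precursor of epidermal growth factor. For the distal tubule they were Klk1 (5115 FPKM, 59.6-fold), a kallikrein protease, and Kl (538, 6.55-fold over cerebellum), the FGF23 coreceptor klotho. For the collecting duct they were Slc26a4 (269 FPKM, 27.6-fold), the anion exchanger pendrin, and Atp6v1b1 (150, 45.7-fold), a proton pump subunit, both of intercalated cells.

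Few genes of the podocyte list were highest in kidney. Podxl, podocalyxin, was 155 FPM in kidney and 166 in heart. The list summed to 357 FPM in kidney against 765 to 1169 in the brain tissues, and 2 of the 9 genes were highest in kidney. Among regulators, 2 of 9 were called in kidney, Pax8 among them, while Hnf4a was 2015 FPM in kidney and 1478 in liver and Epcam was 305 in kidney and 1589 in the testes-labelled tissue.

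Markers of other cells that a kidney piece can hold were also measured in the kidney splice junction library. None of 7 endothelial and none of 4 leukocyte genes was called, and 1 of 6 mesangial and stromal genes was, the renin gene Ren1 (152 FPM, 51.3-fold over heart). Highest per length in kidney were Emcn (361 FPM) and Kdr (426) of the endothelial genes, Acta2 (110) after Ren1, and Cd74 (502) and Csf1r (136) of the leukocyte genes. The 5 adrenal cortex genes summed to 2.66 FPM with 2 at 0 (Star 2.52, Hsd3b1 0.0703), and the 4 globin genes to 9.70 (Hbb-bs 3.48, Hba-a1 3.20). Of the choroid plexus list, Kl and Folr1 (473 FPM, 16.8-fold over cerebellum), a folate receptor that the proximal tubule also carries, were highest in kidney.

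**Figure D3:**
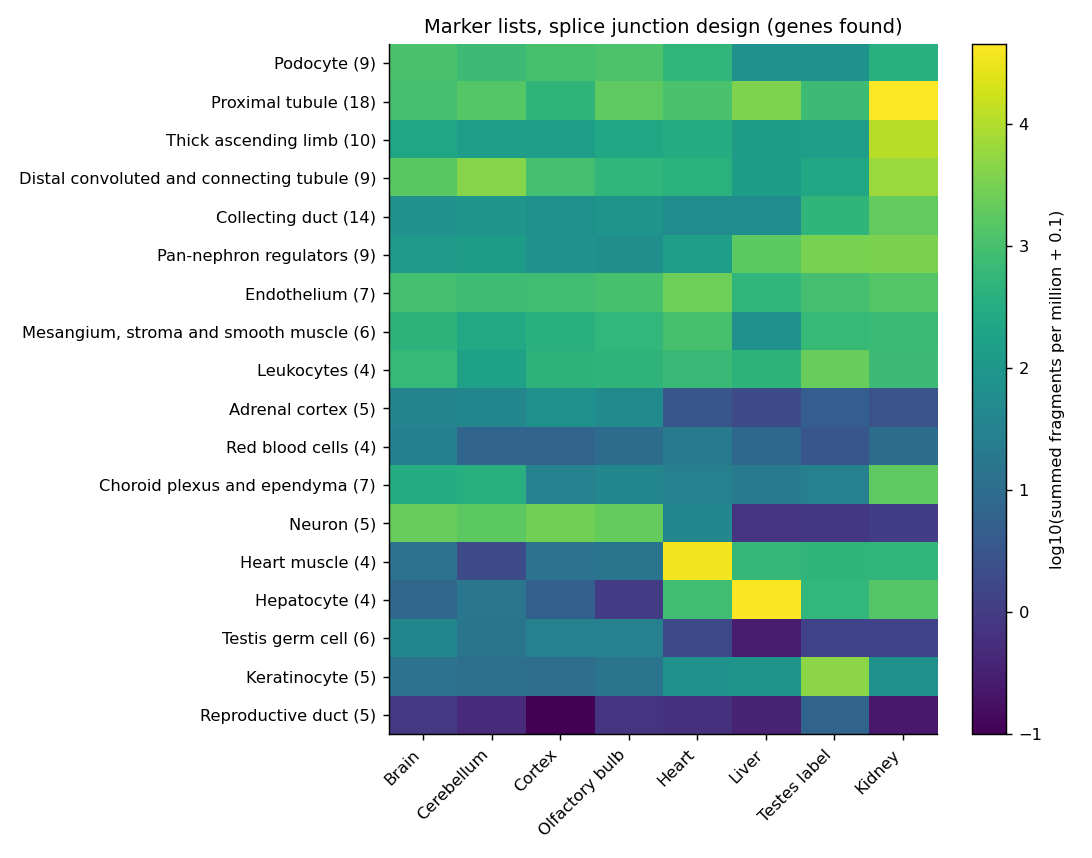
Summed FPM of each marker list (rows, with the number of genes found) in the splice junction library of each tissue (columns), coloured on a log10 scale after adding 0.1. Kidney is the brightest column for the proximal tubule (45686), thick ascending limb (11273) and collecting duct (2033) lists, and is below the brain tissues for the podocyte list.

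Outside the kidney the members other than Lrp2 were mostly traces, which differed between tissue classes. In the splice junction design the 8 members other than Lrp2 reached 1.48% to 2.27% of their kidney level in heart (median 1.81%), 0.853% to 1.74% in liver (median 1.31%) and 0.604% to 1.62% in the testes-labelled tissue (median 1.24%). Podocyte, proximal tubule, loop, distal tubule and duct genes thus lay close together in each of these libraries, with Kap lowest in liver and the testes-labelled tissue. The 180 features called in kidney with at least 1000 kidney fragments had medians of 1.71%, 1.36% and 1.27% in the same libraries. In the 4 brain tissues the members had medians of 0.00314% to 0.0173%, and Nphs1 alone was above 1% of its kidney level, at 2.71% to 12.7%. Umod and Kap were at 0 fragments in all 4, for which the exact 95% upper limit is 3.69 fragments in a library.

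**Figure D4:**
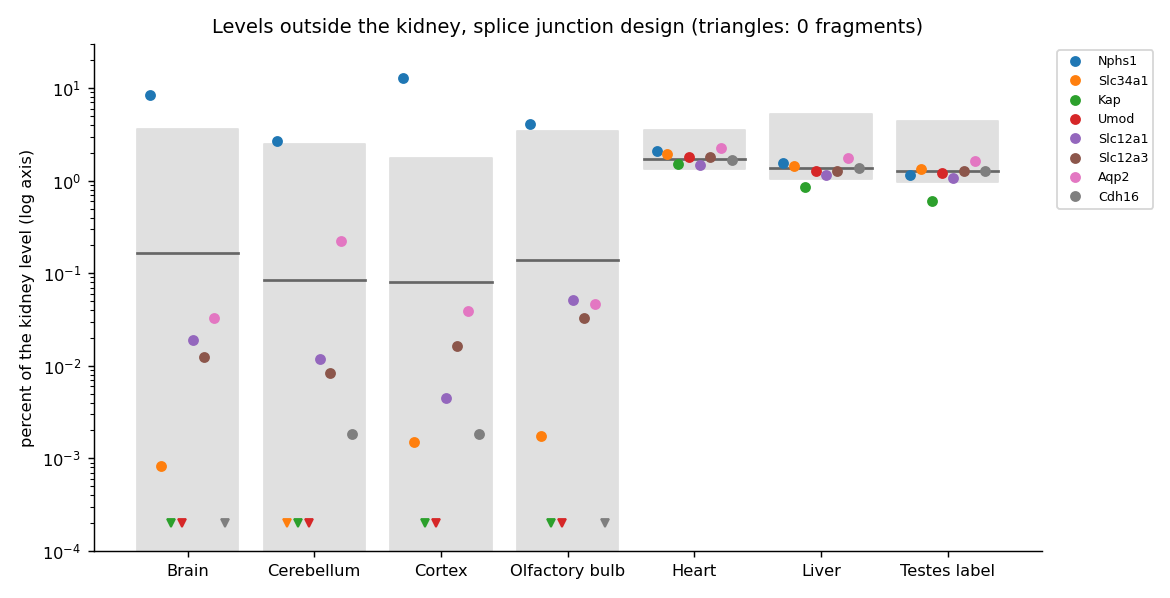
Level of 8 members outside the kidney as a percent of their kidney level (y axis, log scale) in 7 splice junction libraries, with triangles for 0 fragments, and with the 10th to 90th percentile (grey) and median (line) of the 180 kidney-called features. Members lie between 0.604% and 2.27% in the nonbrain libraries, and in the brain libraries all but Nphs1 lie at or below 0.226%.

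Markers of the other organs showed small levels in the same pool. The 4 heart muscle genes summed to 36436 FPM in heart, 538 in kidney, 585 in liver and 512 in the testes-labelled tissue, and 1.82 to 15.8 in the brain tissues. Tnnt2 was 16020 in heart and 72.7 in kidney, and Actc1 20254 and 95.2. Hepatocyte genes summed to 41570 in liver, 1373 in kidney, 839 in heart and 558 in the testes-labelled tissue, and 0.887 to 16.4 in the brain tissues, led in kidney by Apob (1093) and Cps1 (275). Neuronal genes summed to 1707 to 2782 in the brain tissues and to 0.984 in kidney, with Rbfox3 at 0.176 and Gad1 at 0.492. The nonbrain libraries were hybridized in one pool, and the part of the pool in the traces was not tested. With lncRNA probes the traces had medians of 0.263% in heart, 0.582% in liver and 0.326% in the testes-labelled tissue over all 9 members, where Lrp2 in the testes-labelled tissue, at 8.65%, was the highest value, and Aqp2 rested on 1 fragment.

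Levels outside the kidney were compared between the 4 brain tissues and heart, liver and the testes-labelled tissue with limma on log2(value + 1). Both designs of a tissue were averaged, and kidney was left out. Of the members, 7 were lower in brain after Benjamini-Hochberg adjustment over 30815 features, against 6.98% of all features lower and 21% higher, with a median difference of 0.39 in log2. Differences in log2 with their standard errors (n = 4 and 3) were -8.29 ± 0.48 for Slc34a1, -6.91 ± 0.48 for Umod, -6.24 ± 0.79 for Lrp2, -5.62 ± 0.47 for Cdh16, -5.62 ± 0.62 for Slc12a3, -4.69 ± 0.56 for Slc12a1 and -3.11 ± 0.47 for Aqp2, with limma adjusted p from 2.6e-05 to 0.0018. Nphs1 went the other way, at 1.15 ± 0.91, and was not past the threshold (adjusted p = 0.39). Kap was below the filter of a mean value of 10 over the 7 tissues. Of the 8 members that passed it, 6 (all but Nphs1 and Lrp2) had a brain mean under 10 and passed through heart, liver and the testes-labelled tissue alone, so they had to differ, and the count of 7 is a description only. Without the testes-labelled tissue the difference of Lrp2 was -5.34. No call of a member was lost when any tissue was left out, but the filter had been set on all 7 tissues. For the same 6 members this adds no support, and their standard errors and adjusted p are descriptions too. With lncRNA libraries alone Aqp2 (-0.98, adjusted p = 0.21) and Cdh16 (-1.44, adjusted p = 0.16) missed the threshold.

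Kidney RNA was captured with different probes in the 2 kidney libraries. In FPM, the splice junction library was 149-fold above the lncRNA library for Slc12a1, 78.1-fold for Cdh16, 58.5-fold for Aqp2, 36.5-fold for Umod, 12.6-fold for Slc34a1, 2.05-fold for Slc12a3, 1.20-fold for Nphs1 and 0.417-fold for Kap. With the single-exon models left out the ratio rose to 43.6 for Slc34a1 and to 58.3 for Slc12a3. The spliced messages of the loop, distal tubule and duct genes were thus at least 36.5-fold higher with the splice junction design, and Nphs1 and Kap were nearest to equal.

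**Figure D5:**
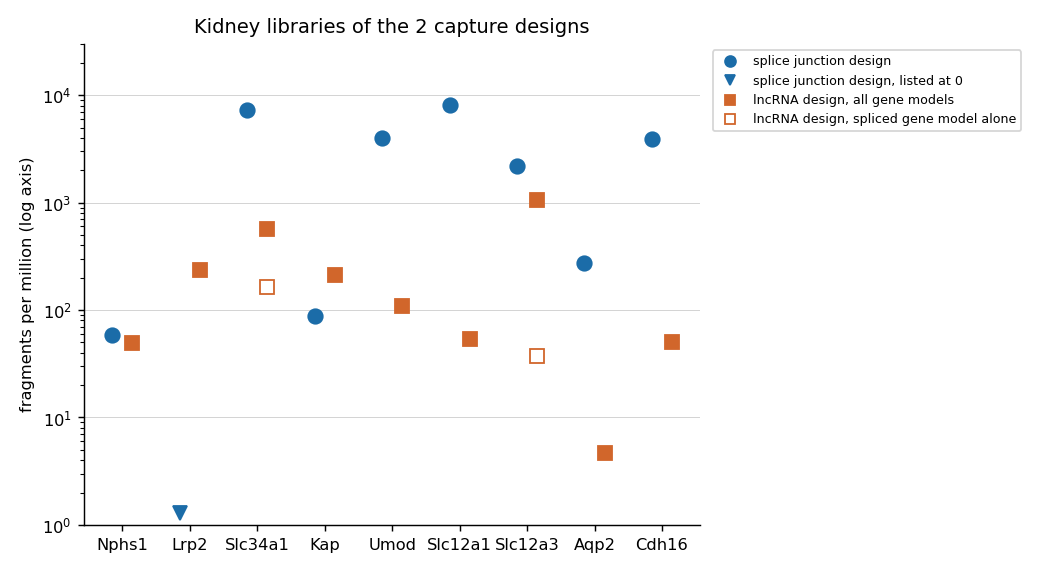
FPM (y axis, log scale) of each member in the kidney library of the splice junction design (circles) and of the lncRNA design (filled squares, with open squares for the spliced gene model alone where single-exon models also belong to the gene). Lrp2 is listed at 0 in the splice junction library (triangle), and the open squares of Slc34a1 (165) and Slc12a3 (37.4) lie below their filled squares (571 and 1063).

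Over all 8 tissues the designs were compared with limma, tissue as a factor. Whole brain and parts of it were again taken as independent tissues. At adjusted p below 0.05, 34.6% of 30778 features were lower and 60.1% higher in the lncRNA design, with a median difference of 2.62 in log2. Of the members, 6 were lower and none was higher, and all 9 differences lay below that median. Slc12a1 differed by -6.10 ± 0.87 (SE, n = 8 tissues, limma adjusted p = 8.2e-05) and was lower in 8 of 8 tissues, Cdh16 by -4.26 ± 1.33 (0.012), Aqp2 by -3.64 ± 0.76 (0.0013), Umod by -3.10 ± 1.05 (0.017), Slc34a1 by -2.72 ± 0.70 (0.0045) and Nphs1 by -1.78 ± 0.56 (0.012). Aqp2 and Nphs1 were lower in 8 of 8 tissues, Slc34a1 in 7, Cdh16 in 6 and Umod in 4. The difference of Umod was 0 in the 4 brain tissues, without a fragment in either design, and -5.05 to -6.95 in the nonbrain tissues. Its mean of -3.10 thus describes neither class. A like split held for Cdh16 (-0.82 to 0 in brain, -10.42 to -6.15 in nonbrain tissues) and Slc34a1 (-1.15 to 0, -5.31 to -3.52). It also held for Aqp2 (-2.91 to -0.90, -7.01 to -4.89) and Slc12a1 (-5.33 to -2.24, -9.70 to -7.08). Their means describe neither class either, whereas the classes overlapped for Nphs1. Kap (0.12 ± 0.25, limma adjusted p = 0.65) and Slc12a3 (-0.23 ± 0.54, adjusted p = 0.69) were not past the threshold. The difference of Slc12a3 was 0.45 to 1.92 in the brain tissues and -2.23 to -0.90 in the nonbrain tissues. Its mean near 0 thus joins opposite signs and describes neither class. For the spliced gene model of Slc12a3 alone the difference was -4.76, with an adjusted p of 0.00086. Lrp2 differed by -4.86 ± 2.17 (adjusted p = 0.054) with kidney and by -7.31 ± 0.45 (adjusted p = 5.4e-07) without it, being lower in the lncRNA design in 7 of 8 tissues.

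Genes with the most similar tissue pattern were sought among 13669 protein-coding genes over the 8 splice junction libraries (13535 genes and 7 libraries for Lrp2), by Pearson's r of log2(FPM + 0.1), given as a description over tissues that share libraries and pools. Umod was nearest to Acsm2 (r = 0.9997) and Miox (0.9996), Cdh16 to Acsm2 (0.999), and Slc34a1 to Umod itself (0.998). Aqp2 was nearest to S100g (0.997), Slc12a3 to Serpina1f (0.998), Slc12a1 to Slc5a10 (0.994) and Kap to Vil1 (0.996). Nphs1, with its brain levels, was nearest to Cgref1 (0.975). Lrp2, without kidney, was nearest to Plbd1 (0.991), which held 2308 FPM in the testes-labelled tissue and 113 in kidney. The remaining genes among the nearest 3 had r of 0.964 or more.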

How the data were processed

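The values analysed are signal values: per the labels and the study's methods, the authors aligned stranded paired reads with TopHat2 to GRCm38, assembled and merged transcripts with Cufflinks 2.2.1, and deposited Cuffnorm 2.2.1 normalized fragment estimates per transcript, 1 column for each of 16 libraries. Gene-model sums were whole multiples of a step in each library (100% of sums up to 20 steps, within 0.1 step), which gave fragments, 395430774 in all.

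Transcripts were assigned to GENCODE M21 symbols with bedtools 2.31.1. Contrasts were fitted with limma 3.58.1 in R 4.3.3 on log2(value + 1), with features of mean value at least 10 and Benjamini-Hochberg adjustment over all features, and were tested on simulated data. Fold changes on this scale understate the change of low genes. Every library is replicate 1 of its tissue and design, so p-values measure the spread between tissues, and whether it is technical was not tested. Poisson and conditional 95% intervals are exact and cover counting error only, since PCR reads are not independent molecules. Kidney has 1 library per design and no p-value.

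Members and marker lists were chosen with earlier results of these data known. Named were the 9 members, the 2 genes of each list highest per length in kidney, transcripts with at least 10% of a gene in a kidney library and the most abundant one without an M21 intron chain, and, of the 3 genes most like each member, the first. Alternatives were other scalings, filters, folds and single tissues left out. The TATA box was searched in RefSeq windows of GRCm38.p6. Some genes that these rules name are not reported here.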

Additional observations from a re-analysis of the deposited data

Results flagged for a closer look

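Among 18 groups of tissues examined for a value far from the others, 2 held one, where chance gives about 1 in 20. The difference of Lrp2 between designs (lncRNA minus splice junction, log2) was 12.26 in kidney and -9.32 to -5.83 in the other 7 tissues, a gap of 0.838 of the whole range. It restates the listed 0 in the kidney splice junction library, for which Lrp2 was already singled out, and is no separate find. Aqp2 had a mean log2 value over both designs of 1.46 in cerebellum and 0.45 to 0.57 in the other brain tissues, a gap of 0.878 of the range, on 17 fragments against 3 in each of the others in the splice junction design.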

How the results depend on the processing

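The design contrast was paired by tissue, and no block by replicate number could be fitted because every library carries number 1. The number of members called in kidney kept within 1.5 times under 5 alternatives in each design, with 8 in the splice junction design at 5-fold or against the second highest library and 7 in the lncRNA design at 20-fold. Of 51 kidney folds under alternatives that can move a fold, 12 left their interval, 11 of them among the 17 set against the second highest library, where Nphs1 of the splice junction design passed 10-fold. The leading Slc12a1 transcript took 56.8% of the gene in kidney, 60.03% of transcripts with an M21 intron chain and 57.2% of those with at least 1%. The values for Cdh16 were 89.2%, 100% and 89.4%. In the contrast of brain with heart, liver and the testes-labelled tissue, 8629 features passed, and 4978 with splice junction libraries alone. Quantile normalization split the calls into 4443 higher and 3956 lower, against 6479 and 2150. Of 120 member values 118 kept direction and call. Of the 8 members behind them, 6 passed the filter through heart, liver and the testes-labelled tissue alone and had to differ. That count is therefore a description only. In the design contrast quantile normalization gave 13895 higher and 12809 lower, against 18486 and 10640, with a median over all features of 0.77 in place of 2.62. Of 135 member values 122 kept direction and call. Kap turned to -1.14 with quantile normalization and ranged from -0.067 to 0.26 with a tissue left out (lowest without kidney), and Slc12a3 ranged from -0.54 to 0.055 (highest without liver, and 0.048 without the testes-labelled tissue). Neither passed the threshold in the main analysis, and Slc12a3 did with quantile normalization (-2.06). Without the tissue factor Nphs1, Slc34a1, Umod and Cdh16 lost the call (limma adjusted p 0.11 to 0.35). Lrp2 gained it in FPM (-5.43) and with quantile normalization (-5.61). The cause of these changes was not tested. Depth limits Aqp2, Slc12a1 and Cdh16 in the lncRNA design, where the next tissue held 1 or 2 fragments.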
